A study of Mus musculus with 12 samples.

Results

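The genes of bile acid synthesis and transport were followed in cultured primary mouse hepatocytes. They were 10 of the 46983 genes counted, taken by name from all 12 libraries. The enzymes of synthesis were Cyp7a1, Cyp8b1, Cyp27a1 and Cyp7b1, the conjugating enzyme was Baat, the uptake carriers were Slc10a1 and Slco1b2, and the canalicular exporters were Abcb11, Abcc2 and Abcb4. The knock-in cells came from AEG-1-L24K/L25H mice, in which CRISPR/Cas9 editing changed 2 amino acids of AEG-1, the protein that Mtdh encodes, and the wild-type cells from AEG-1-WT littermates, all on a C57BL/6/J background and on regular chow. Cells of each genotype were given the PPAR-alpha agonist CP775146 for 24 h or were left untreated. This gave treated knock-in, untreated knock-in, treated wild type and untreated wild type, with 3 libraries each. The labels name no vehicle for the untreated cultures and give neither the age of the mice nor the number of founder lines, and the agonist concentration is not reported here. Nor do they state which libraries, if any, shared an animal or a culture, so p-values may measure technical spread alone. An effect of genotype and one of the cell preparation cannot be told apart.

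Hepatocytes make bile acids from cholesterol along a classical route, which Cyp7a1 opens, and an alternative route, which Cyp27a1 opens. The products are joined to taurine or glycine and pumped across the canalicular membrane into bile, and the bile acids that return in portal blood are taken up again at the sinusoidal membrane. The receptor FXR, encoded by Nr1h4, senses bile acids in the cell and in liver acts partly through Nr0b2 to restrain synthesis. PPAR-alpha is the receptor through which fibrate drugs act, and the phospholipid exporter gene Abcb4 is one of its known targets in mouse liver.

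Total counts were 26956032 to 34885451 per library. The genes tested across the data numbered 15664, and all 10 bile acid genes were among them, Cyp7a1 through its counts in untreated libraries only. A count of 3 equalled 0.086 to 0.111 CPM (counts scaled to library size). Mtdh had 193 ± 3.72 CPM in treated knock-in, 173 ± 1.98 in untreated knock-in, 181 ± 4.32 in treated wild type and 166 ± 8.47 in untreated wild type (SD, n = 3 each), and counts per gene cannot show the edited residues. Of the hepatocyte markers, 9 were matched and all were detected, with summed levels of 81700 to 84260 CPM in treated knock-in, 90500 to 95100 in untreated knock-in, 125800 to 132000 in treated wild type and 127000 to 129500 in untreated wild type. Alb made up most of that sum (65623 CPM in treated knock-in, 70529 in untreated knock-in, 107660 in treated wild type and 102110 in untreated wild type). Of the 9 hepatocyte markers, 1 was higher and 4 lower in the knock-in without treatment, and 2 and 6 with CP775146. Summed markers of stellate cells (8 genes) were 65.5 to 75.1 CPM in treated knock-in, 106 to 119 in untreated knock-in, 156 to 193 in treated wild type and 183 to 216 in untreated wild type. Reln made up most of that sum (67.1 CPM in treated knock-in, 109 in untreated knock-in, 168 in treated wild type and 200.2 in untreated wild type), and of the 7 stellate markers tested 2 were lower and none higher in the knock-in under either condition. Macrophage markers (8 genes) summed to 151 to 169 CPM in treated knock-in, 187 to 198 in untreated knock-in, 215 to 223 in treated wild type and 236 to 275 in untreated wild type, and endothelial markers (7 genes) to 35.5 to 40.6 in treated knock-in, 47.3 to 52.6 in untreated knock-in, 66.0 to 69.0 in treated wild type and 76.9 to 87.9 in untreated wild type. Cd68 (110.1 CPM in treated knock-in, 151 in untreated knock-in, 185 in treated wild type and 234 in untreated wild type) set most of the macrophage sum, while 3 of the 8 macrophage markers were higher and 1, Cd68, was lower in the knock-in under either condition. Stab2 (24.4 CPM in treated knock-in, 33.6 in untreated knock-in, 52.8 in treated wild type and 65.1 in untreated wild type) set most of the endothelial sum. Of the 6 endothelial markers tested, 2 were lower and none higher in the knock-in under either condition. Cholangiocyte markers (10 genes, with Cftr at 0 in both knock-in groups) summed to 145 to 151 CPM in treated knock-in, 161 to 165 in untreated knock-in, 137 to 142 in treated wild type and 139 to 147 in untreated wild type. Slc4a2 and Slc10a2 set most of that sum, whereas duct markers such as Krt7 and Spp1 were higher in the knock-in. Krt7 had 1.66 CPM in treated knock-in, 6.2 in untreated knock-in, 0.873 in treated wild type and 1.35 in untreated wild type, and Spp1 had 22.2 in treated knock-in, 17.1 in untreated knock-in, 9.51 in treated wild type and 5.54 in untreated wild type. Of the 8 tested, 5 were higher and 1 lower in the knock-in without treatment, and 3 and 1 with CP775146. Over all genes tested, 37.0% were called between genotypes without treatment, 18.4% as higher in the knock-in and 18.6% as lower. With CP775146 42.5% were called, 20.5% as higher and 22.0% as lower. Marker counts near those shares are no result about a cell type. The part of these markers in the results below was not tested. In such bulk libraries, fewer cells of a type and less RNA per cell cannot be told apart.

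Set per kilobase of exon, to compare levels between genes, the 10 genes spanned a wide range. The length used joins all annotated exons of a gene, at 2173 bases for Cyp27a1, 8532 for Abcc2 and 9383 for Abcb4. It can exceed the length of the transcript made, so the order below depends on it. In CPM without this division, Abcc2 stood above Cyp27a1 in every group. Cyp27a1 stood highest in every group, at 84.8 ± 1.19 CPM per kb in treated knock-in, 86.1 ± 1.52 in untreated knock-in, 118 ± 4.89 in treated wild type and 126 ± 3.08 in untreated wild type (SD, n = 3 each). Baat came next in both knock-in groups (69.0 ± 5.17 CPM per kb treated, 73.8 ± 0.470 untreated), ahead of Abcc2 and Abcb4. In treated wild type Abcc2 (48.1 ± 4.26 CPM per kb) stood ahead of Baat (34.9 ± 1.5), and in untreated wild type their ranges overlapped. The middle of the order held Abcb11, Slc10a1, Cyp7b1 and Slco1b2, all between 1.39 and 11 CPM per kb as group means. Ranges of neighbours also overlapped between Cyp7b1 and Slco1b2 in both untreated groups and between Abcb4 and Slc10a1 in untreated wild type. Cyp8b1 and then Cyp7a1 came last in every group, and Cyp7a1 had no more than 0.325 CPM per kb in any of them. On this scale, the message for the enzyme that opens the classical route was the scarcest of the 10 in these cultures. That for the alternative route was the most abundant.

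**Figure D1:**
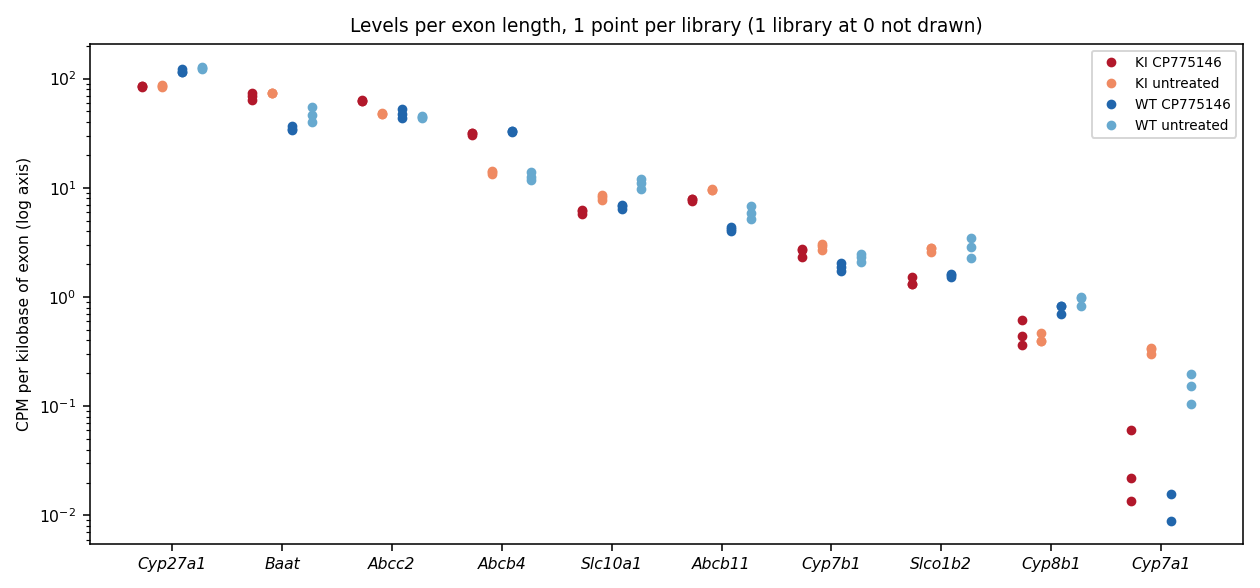
Level of each bile acid gene in CPM per kilobase of exon (log axis), 1 point per library and a colour per group, without the 1 library in which Cyp7a1 had 0 counts. Cyp27a1 stood highest in all 4 groups, with group means of 84.8 to 126 CPM per kb, and Cyp7a1 lowest, with means of no more than 0.325.

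The first question was how CP775146 changed these genes in each genotype. Abcb4, the phospholipid exporter, more than doubled in both genotypes, while the uptake carriers Slc10a1 and Slco1b2, the bile salt export pump Abcb11 and the already scarce Cyp7a1 fell in both. Abcc2 rose in the knock-in. In wild type it passed at a small value with overlapping libraries, and several alternative fits lost that call. In the knock-in, 2 of the 10 genes rose, 4 fell (Cyp7a1, which met the filter on low counts through untreated libraries alone, and 3 others) and 4 did not pass the test, with a median change of −0.13 on the log2 scale against −0.01 over all genes tested. There 37.2% of all genes tested were called, 18.1% as higher and 19.1% as lower. In wild type, 2 rose, 6 fell (Cyp7a1 and 5 others) and 2 did not pass, with a median of −0.36 against −0.01 over all genes tested, where 45.0% were called, 22.7% as higher and 22.3% as lower. Calls are Benjamini-Hochberg adjusted p-values below 0.05 from the edgeR quasi-likelihood test over all genes tested, and changes are log2 ± SE. That test gives no SE, so it was derived as the absolute log2 change divided by the square root of the F statistic. It is unreliable for changes near 0. With scaling by total counts the median of all genes shifted to −0.074 in the knock-in and −0.104 in wild type. Called genes were then 2066 higher and 4352 lower in the knock-in, against 2832 and 2989 with the main scaling, and 2358 higher and 5338 lower in wild type, against 3553 and 3496.

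The second question was how the genotypes differed. Without treatment, Cyp7a1, Cyp7b1, Baat, Abcb11 and Abcb4 were higher in the knock-in, Abcb4 by a small margin, and Cyp8b1, Cyp27a1 and Slc10a1 were lower. That is 5 higher, 3 lower and 2 that did not pass, with a median of 0.11 against −0.0042 over all genes tested, where 37.0% were called, 18.4% as higher and 18.6% as lower. Under CP775146, Cyp7b1, Baat, Abcb11 and Abcc2 were higher in the knock-in and Cyp8b1 and Cyp27a1 were lower. That is 4 higher, 2 lower and 4 that did not pass, with a median of 0.16 against −0.01 over all genes tested, where 42.5% were called, 20.5% as higher and 22.0% as lower. Scaling by total counts moved the median of all genes to 0.098 without treatment and 0.124 under CP775146, with 5024 genes higher and 1722 lower (2884 and 2918 with the main scaling) without treatment, and 5950 higher and 1867 lower (3218 and 3447) under CP775146. The 4 comparisons share libraries in pairs, so their values are given side by side for each gene.

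**Figure D2:**
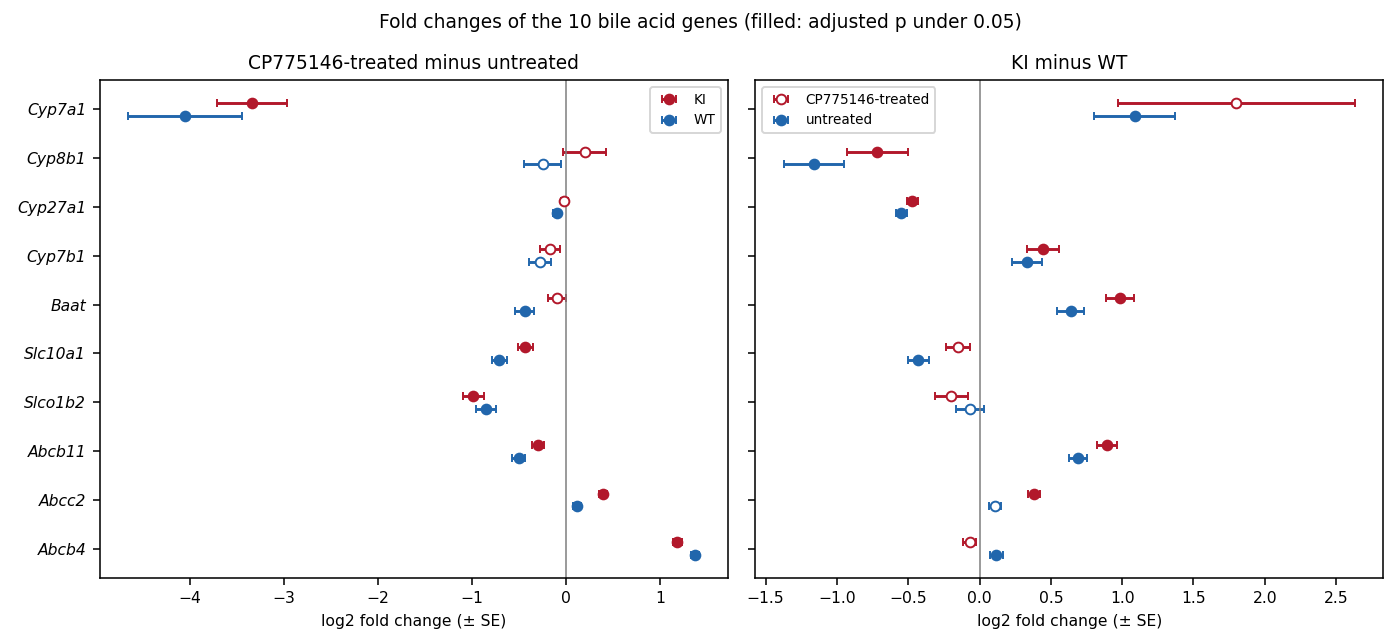
Log2 fold change of each bile acid gene in the 4 comparisons of 2 groups, with bars for the SE derived from the edgeR test over all 12 libraries, filled points for an adjusted p under 0.05, KI for knock-in and WT for wild type. Abcb4 lies at 1.18 and 1.37 for CP775146 in knock-in and wild type, Cyp7a1 at −3.33 and −4.05, and Baat and Abcb11 lie above 0 in both genotype comparisons. Cyp7a1 met the filter on low counts through untreated libraries alone, so its filled points for CP775146 are not read as a test.

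Cyp7a1 encodes the cholesterol hydroxylase that opens the classical route and limits its rate (ENSMUSG00000028240, GRCm38 chromosome 4, 6265612 to 6275633, minus strand). It had 0.254, 0.092 and 0.0563 CPM in treated knock-in and 1.42, 1.25 and 1.39 in untreated knock-in. In wild type it had 0.0657, 0 and 0.0372 CPM with CP775146 and 0.440, 0.827 and 0.645 without. Treated and untreated libraries did not overlap in either genotype, and every untreated knock-in library lay above every untreated wild-type one. These levels rest on few reads, 13 in the treated and 135 in the untreated knock-in libraries together, and 3 in the treated and 52 in the untreated wild-type libraries. As a ratio of scaled counts, treated to untreated was 0.0963 in the knock-in, with an exact 95% interval of 0.05 to 0.170, and 0.0545 in wild type, with an interval of 0.0109 to 0.168. The intervals cover counting error only. The edgeR log2 change was −3.33 ± 0.37 in the knock-in and −4.05 ± 0.60 in wild type, values that depend on the prior count at this depth. Since untreated libraries alone carried the gene past the filter on low counts, no p is given for the treatment. Untreated knock-in to untreated wild type was 2.13 (1.54 to 3), with an edgeR log2 difference of 1.09 ± 0.28 (adjusted p = 0.00293). Under CP775146 the ratio of knock-in to wild type was 3.77 with an interval of 1.04 to 20.6, from 13 and 3 reads, the libraries overlapped, and edgeR gave an adjusted p of 0.0818. Without the third treated knock-in library that p was 0.0395, with a log2 difference of 2.18.

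Cyp8b1, the sterol hydroxylase needed for cholic acid (ENSMUSG00000050445, chromosome 9, 121914356 to 121916305, minus strand), was also low. Its levels were 0.857, 0.705 and 1.21 CPM in treated knock-in, 0.915, 0.764 and 0.767 in untreated knock-in, 1.61, 1.6 and 1.38 in treated wild type and 1.94, 1.92 and 1.61 in untreated wild type. All 6 knock-in libraries lay below all 6 wild-type ones. The knock-in was lower, with a difference of −1.16 ± 0.21 log2 without treatment (edgeR adjusted p = 5.98e-05) and −0.72 ± 0.21 with CP775146 (edgeR adjusted p = 0.00693). Without the second treated knock-in library, the value with CP775146 was −0.55 with an adjusted p of 0.0541. The treatment gave log2 values of 0.19 ± 0.23 in the knock-in and −0.25 ± 0.19 in wild type, with edgeR adjusted p-values of 0.556 and 0.318.

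Cyp27a1, the mitochondrial hydroxylase that opens the alternative route and also works on the sterol side chain in the classical one (ENSMUSG00000026170, chromosome 1, 74713574 to 74737892, plus strand), was lower in the knock-in. It had 187, 181 and 185 CPM in treated knock-in, 184, 190 and 187 in untreated knock-in, 251, 248 and 268 in treated wild type, and 267, 280 and 274 in untreated wild type. Here too no knock-in library reached the lowest wild-type one. The genotype difference was −0.55 ± 0.04 log2 without treatment (edgeR adjusted p = 6.93e-13) and −0.47 ± 0.04 with CP775146 (edgeR adjusted p = 1.48e-11). CP775146 gave −0.02 ± 0.04 in the knock-in (edgeR adjusted p = 0.701). In wild type it gave a small fall of −0.10 ± 0.04 (edgeR adjusted p = 0.0314) with overlapping libraries. Leaving out treated knock-in replicate 3, treated wild-type replicate 1 or 2, or untreated wild-type replicate 2 or 3 raised that p to between 0.0508 and 0.119.

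Cyp7b1, the oxysterol hydroxylase of the alternative route (ENSMUSG00000039519, chromosome 3, 18071950 to 18243338, minus strand), was low and differed the other way. It had 5.81, 5 and 5.91 CPM in treated knock-in, 5.84, 6.60 and 6.39 in untreated knock-in, 4.07, 4.46 and 3.76 in treated wild type and 5.06, 4.55 and 5.34 in untreated wild type. Knock-in libraries lay above wild-type ones within each treatment. The difference was 0.33 ± 0.11 log2 without treatment (edgeR adjusted p = 0.0148) and 0.44 ± 0.11 with CP775146 (edgeR adjusted p = 0.00179). Without the second untreated knock-in or the second untreated wild-type library, the value without treatment was 0.30 or 0.28, with adjusted p of 0.0587 or 0.0715. The treatment gave −0.17 ± 0.10 in the knock-in (edgeR adjusted p = 0.201) and −0.28 ± 0.12 in wild type, where the libraries did not overlap and edgeR gave an adjusted p of 0.0513. Leaving out the second treated or the second untreated wild-type library lowered the wild-type p to 0.0302 or 0.0338.

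Baat joins bile acids to taurine or glycine (ENSMUSG00000039653, chromosome 4, 49489422 to 49506557, minus strand). Its levels were 135, 123 and 143 CPM in treated knock-in, 144, 144 and 142 in untreated knock-in, 65.5, 71.0 and 66.7 in treated wild type, and 90.7, 78.3 and 107 in untreated wild type. Every knock-in library lay above every wild-type one, and the untreated wild-type libraries were the most spread. Knock-in was higher by 0.98 ± 0.10 log2 with CP775146 (edgeR adjusted p = 1.75e-05) and by 0.64 ± 0.10 without (edgeR adjusted p = 0.000452). Baat fell with CP775146 in wild type, with a change of −0.44 ± 0.10 (edgeR adjusted p = 0.005), and gave −0.10 ± 0.09 in the knock-in (edgeR adjusted p = 0.473).

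The uptake carriers fell with CP775146 in both genotypes. Slc10a1 encodes the sodium-dependent carrier NTCP, which takes conjugated bile acids from blood (ENSMUSG00000021135, chromosome 12, 80953185 to 80968079, minus strand). It had 9.65, 10.5 and 10.3 CPM in treated knock-in, 12.8, 14.3 and 13.9 in untreated knock-in, 11.4, 11.7 and 10.7 in treated wild type, and 20.2, 16.4 and 18.7 in untreated wild type. Treated libraries lay below untreated ones in each genotype, and untreated knock-in lay below untreated wild type. The treatment changed it by −0.43 ± 0.08 log2 in the knock-in (edgeR adjusted p = 4.19e-05) and by −0.71 ± 0.08 in wild type (edgeR adjusted p = 6.75e-09). The knock-in was lower without treatment, at −0.43 ± 0.07 (edgeR adjusted p = 2.28e-05), and with CP775146 the difference was −0.15 ± 0.08 (edgeR adjusted p = 0.139).

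Slco1b2 encodes a sodium-independent organic anion carrier of the same membrane (ENSMUSG00000030236, chromosome 6, 141629518 to 141686646, plus strand). Its levels were 7.49, 6.50 and 6.50 CPM in treated knock-in, 13.9, 14.0 and 12.6 in untreated knock-in, 8.08, 7.49 and 7.88 in treated wild type, and 14.1, 11.3 and 16.9 in untreated wild type. Treated and untreated libraries stood apart in both genotypes, while the genotypes overlapped under either condition. The treatment changed it by −0.98 ± 0.11 log2 in the knock-in (edgeR adjusted p = 6.74e-08) and by −0.85 ± 0.11 in wild type (edgeR adjusted p = 6.56e-07). The genotype differences were −0.07 ± 0.10 without treatment and −0.20 ± 0.12 with it, at edgeR adjusted p-values of 0.648 and 0.191.

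At the canalicular membrane, the exporter genes moved in opposite directions with CP775146. The stretches of 250 bases up to each RefSeq start (GRCm38.p6) are shown for these 3 genes because their responses differed, with capitals for AGGTCA or its reverse complement TGACCT, the half-site of many nuclear receptors, read on both strands. They are Abcb4 at chr5:8893471-8893720 (plus strand), Abcc2 at chr19:43782058-43782307 (plus strand) and Abcb11 at chr2:69342617-69342866 (minus strand), each written 5′ to 3′ on the strand of the gene.
Abcb4: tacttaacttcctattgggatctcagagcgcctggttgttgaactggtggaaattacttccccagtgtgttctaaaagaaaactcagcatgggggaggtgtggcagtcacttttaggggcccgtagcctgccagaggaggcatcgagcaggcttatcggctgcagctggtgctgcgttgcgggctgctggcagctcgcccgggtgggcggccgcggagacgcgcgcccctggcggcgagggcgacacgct
Abcc2: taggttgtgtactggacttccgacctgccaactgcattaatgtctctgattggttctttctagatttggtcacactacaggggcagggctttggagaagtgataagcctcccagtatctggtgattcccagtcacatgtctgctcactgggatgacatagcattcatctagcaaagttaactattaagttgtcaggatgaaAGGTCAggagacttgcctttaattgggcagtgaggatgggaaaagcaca
Abcb11: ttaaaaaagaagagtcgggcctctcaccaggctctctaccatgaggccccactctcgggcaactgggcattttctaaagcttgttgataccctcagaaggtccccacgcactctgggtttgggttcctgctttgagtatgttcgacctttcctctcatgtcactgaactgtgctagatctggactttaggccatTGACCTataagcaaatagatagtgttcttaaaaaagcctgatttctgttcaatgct
The half-site lies 49 to 44 bases upstream of the RefSeq start of Abcc2 and, reversed, 56 to 51 bases upstream of that of Abcb11, and its letters are not in the Abcb4 window. The Abcc2 gene model used for counting starts at 43782192, inside the window shown, so these letters lie within that model. The half-site occurs in 14.0% of 32851 such windows, so a match is a description of these letters and not a site. The direct repeat AGGTCANAGGTCA, in the form that PPAR-alpha and its partner RXR bind, occurs in 0.0335% of all windows and in none of the 3 shown. With exact matches that rare, their absence from 3 windows carries no information on binding. The Abcb4 window was 61.6% G or C, against a median of 52.4% over all windows. Windows were matched for 7 of the 10 genes, all but Baat, Cyp7a1 and Cyp7b1. The half-site was in windows of 4 of them, Abcb11, Abcc2, Slc10a1 and Slco1b2.

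Abcb4 encodes MDR2, which moves phosphatidylcholine into bile (ENSMUSG00000042476, chromosome 5, 8893717 to 8959231, plus strand). It had 299.6, 285 and 301 CPM in treated knock-in, 127, 130 and 134 in untreated knock-in, 307, 312 and 309 in treated wild type, and 118, 111 and 131 in untreated wild type. Treated libraries were far above untreated ones in both genotypes, and the untreated genotypes overlapped. The change was 1.18 ± 0.04 log2 in the knock-in, 2.27-fold in mean CPM (edgeR adjusted p = 5.03e-19), and 1.37 ± 0.05 in wild type, 2.58-fold (edgeR adjusted p = 1.54e-20). The genotype difference was −0.07 ± 0.04 with CP775146 (edgeR adjusted p = 0.218). Without treatment it was 0.12 ± 0.05 (edgeR adjusted p = 0.0471). Leaving out untreated knock-in replicate 2 or 3, untreated wild-type replicate 1 or 2, or any treated wild-type library raised that p to between 0.0532 and 0.268, with 0.07 log2 the lowest difference, without untreated wild-type replicate 2.

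Abcc2 encodes MRP2, which exports conjugated bilirubin and other conjugates (ENSMUSG00000025194, chromosome 19, 43782192 to 43840740, plus strand). It had 536, 539 and 529 CPM in treated knock-in, 408, 407 and 411 in untreated knock-in, 407, 448 and 375 in treated wild type, and 379, 374 and 384 in untreated wild type. The treated knock-in libraries stood above all others, and the 2 wild-type groups overlapped. The treatment raised Abcc2 by 0.39 ± 0.04 log2 in the knock-in (edgeR adjusted p = 2.07e-08). In wild type the value was 0.11 ± 0.04 (edgeR adjusted p = 0.035), which scaling by total counts reduced to 0.01 with an adjusted p of 0.817. Leaving out treated wild-type replicate 2 reduced it to 0.04 with an adjusted p of 0.424, and the call was also lost without treated replicate 1 or untreated replicate 1 or 2. Knock-in was higher by 0.38 ± 0.04 with CP775146 (edgeR adjusted p = 2.20e-08), and without treatment the libraries did not overlap but the difference of 0.11 ± 0.04 did not pass (edgeR adjusted p = 0.0512). It passed with total-count scaling, at 0.21, with RLE scaling (adjusted p = 0.0443), without the low-count filter (0.00748), with a filter of 5 CPM in 3 libraries (0.0399) and in a fit of the compared groups alone (0.0144). It also passed, at 0.10, without treated wild-type replicate 2 or 3 (adjusted p = 0.0165 or 0.021).

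Abcb11 encodes the bile salt export pump (ENSMUSG00000027048, chromosome 2, 69238282 to 69342616, minus strand), and 3.01% of its exon length is shared with overlapping annotations. Its levels were 40.6, 39.0 and 40.8 CPM in treated knock-in, 48.8, 50.0 and 49.4 in untreated knock-in, 21.5, 22.6 and 20.8 in treated wild type, and 30.0, 26.6 and 35.2 in untreated wild type. No 2 groups overlapped. The pump fell with CP775146, with changes of −0.30 ± 0.06 log2 in the knock-in (edgeR adjusted p = 0.00033) and −0.50 ± 0.07 in wild type (edgeR adjusted p = 1.58e-06). Knock-in was higher by 0.89 ± 0.07 with CP775146 (edgeR adjusted p = 3.12e-11) and by 0.69 ± 0.06 without (edgeR adjusted p = 2.09e-09).

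**Figure D3:**
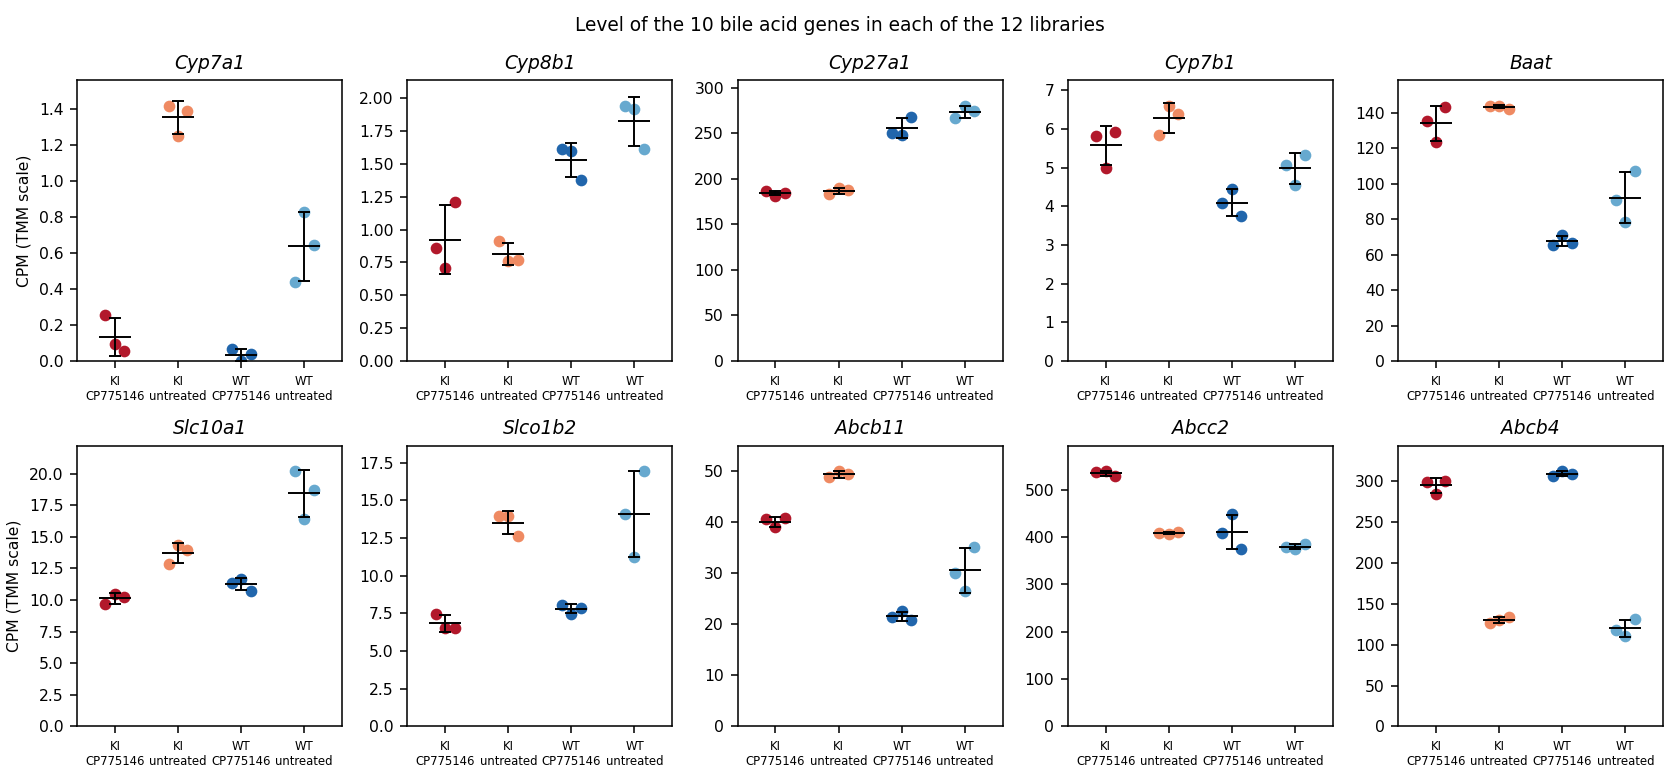
CPM of each bile acid gene in every library (points), by group, with bars for the mean and SD of 3 libraries, a separate axis from 0 for each gene, KI for knock-in and WT for wild type. Abcb4 lies at 285 to 312 in treated libraries and 111 to 134 in untreated ones, and Baat at 123 to 144 in the knock-in and 65.5 to 107 in wild type.

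Whether the response to CP775146 differed between the genotypes was tested as an interaction. Of the 10 genes, Abcc2 responded differently, with a response 0.27 ± 0.06 log2 larger in the knock-in (edgeR adjusted p = 0.00449), where 7.11% of all genes tested were called, 2.78% as higher and 4.33% as lower. The median of the 10 differences was 0.24, against −0.01 over all genes tested. The other 9 did not pass, Abcb4 with −0.19 ± 0.06 (edgeR adjusted p = 0.0772), Baat with 0.35 ± 0.14 (adjusted p = 0.195), Slc10a1 with 0.28 ± 0.11 (adjusted p = 0.134) and Abcb11 with 0.20 ± 0.09 (adjusted p = 0.216). Untreated wild-type replicates decided several of these. Without untreated wild-type replicate 2, the lowest of its group for Baat, Slc10a1 and Abcb11, these 3 genes passed too, Baat at 0.44 (adjusted p = 0.00276), Slc10a1 at 0.35 (adjusted p = 0.04) and Abcb11 at 0.29 (adjusted p = 0.0222). Without untreated wild-type replicate 3, Abcb4 passed at −0.25 (adjusted p = 0.00288). With total-count scaling, called genes over all genes tested were 663 higher and 519 lower, against 435 and 678 with the main scaling.

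Around the 10 genes, the other genes of synthesis and conjugation moved both ways with CP775146, with Slc27a2, Abcd3 and Hsd17b4 rising most in both genotypes. Of 22 such genes 19 were tested. In the knock-in 8 rose and 7 fell, where 18.1% of all genes tested rose and 19.1% fell, and in wild type 8 rose and 5 fell, where 22.7% rose and 22.3% fell. Slc27a2, an acyl-CoA synthetase that activates fatty acids and bile acid precursors, rose by 2.29 ± 0.04 log2 in the knock-in and 2.52 ± 0.04 in wild type. Abcd3, a peroxisomal importer of bile acid precursors, rose by 1.96 ± 0.04 in the knock-in and 2.28 ± 0.04 in wild type. Hsd17b4, the bifunctional enzyme that shortens their side chain, rose by 1.42 ± 0.04 in the knock-in and 1.78 ± 0.04 in wild type. These 3 genes also serve fatty acid metabolism. Cyp2c70, which makes the muricholic acids of mice, fell, with −0.56 ± 0.03 in the knock-in and −0.64 ± 0.03 in wild type. Between genotypes 11 were higher and 3 lower in the knock-in without treatment, against 18.4% and 18.6% of all genes tested, among them Acnat2, an acyltransferase related to Baat (0.51 ± 0.05), Amacr, a peroxisomal racemase (0.58 ± 0.06), and Slc27a5, the bile acid-CoA ligase (−0.38 ± 0.04). With CP775146, 9 were higher and 6 lower, against 20.5% and 22.0% of all genes tested, with Slc27a5 at −0.55 ± 0.04 and Acox2, the oxidase of the side chain, at 0.47 ± 0.04. All of these named changes were called by edgeR, with adjusted p-values of 7.88e-10 or below. Hsd3b7 had no counts in any library, and 99.17% of its exon length is shared with other annotated genes.

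Other transport genes moved both ways. Of 15 genes 14 were tested, and with CP775146 6 rose and 4 fell in the knock-in, where 37.2% of all genes tested were called, and 6 rose and 6 fell in wild type, where 45.0% were. Slco2b1, an organic anion carrier, rose by 0.96 ± 0.05 log2 in the knock-in and 1.34 ± 0.05 in wild type, while its relative Slco1a4 fell, with −1.14 ± 0.05 in the knock-in and −1.54 ± 0.06 in wild type. Slc10a2, the sodium-dependent carrier of ileum and bile ducts, fell to 13.6 ± 0.545 CPM in treated knock-in, against 29.2 ± 1.4 in untreated knock-in, and to 20.0 ± 0.354 in treated wild type, against 37.0 ± 0.865 in untreated wild type (SD, n = 3 each). It is also on the cholangiocyte list above. Between genotypes, 5 were higher and 5 lower in the knock-in without treatment, where 37.0% of all genes tested were called, and 6 were higher and 6 lower with it, where 42.5% were. Abcc4, a basolateral exporter, was higher in the knock-in by 1.56 ± 0.06 with CP775146 and 1.21 ± 0.06 without. Slco1a1, an uptake carrier, was lower, with −2.38 ± 0.13 with CP775146 and −2.13 ± 0.14 without. These changes were called by edgeR with adjusted p-values of 3.54e-13 or below.

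**Figure D4:**
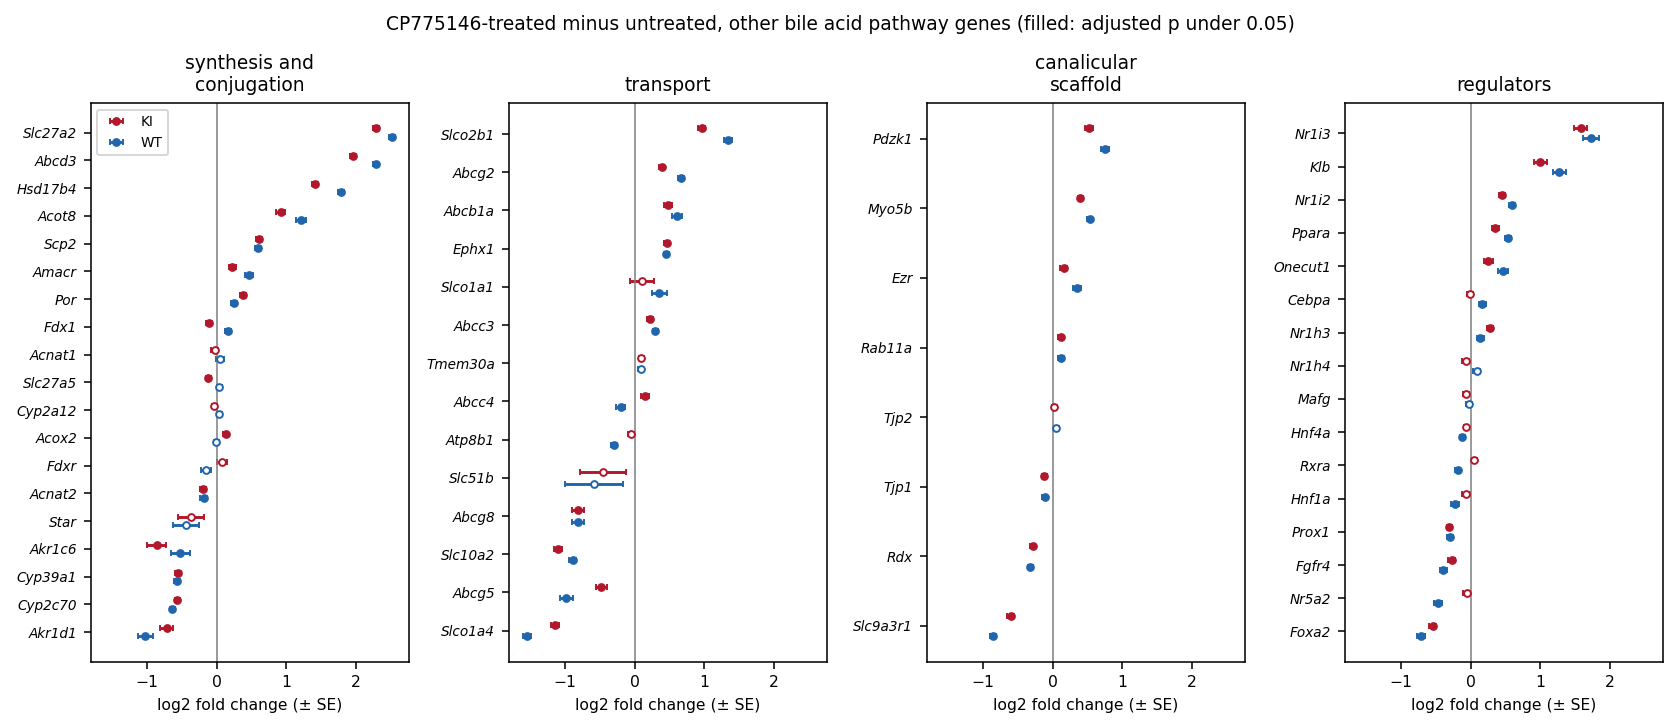
Log2 fold change (treated over untreated) of the other bile acid pathway genes in the knock-in (KI) and wild type (WT), 1 panel per list, with bars for the SE derived from the edgeR test and filled points for an adjusted p under 0.05. Slc27a2 reached 2.29 in the knock-in and 2.52 in wild type, and Slco1a4 lay at −1.14 in the knock-in and −1.54 in wild type.

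Genes of the canalicular scaffold and junctions (8, all tested) had 4 higher and 3 lower with CP775146 in each genotype, against the 37.2% of all genes tested called in the knock-in and 45.0% in wild type. Slc9a3r1, a scaffold protein, fell, with −0.60 ± 0.04 log2 in the knock-in and −0.86 ± 0.05 in wild type. Between genotypes 6 were higher and 1 lower in the knock-in under either condition, against 42.5% of all genes tested called with CP775146 and 37.0% without, with Ezr, the membrane linker ezrin, at 0.65 ± 0.05 with CP775146 and 0.85 ± 0.06 without. Of 19 regulators 16 were tested, and with CP775146 6 rose and 3 fell in the knock-in (37.2% of all genes tested called) and 7 rose and 7 fell in wild type (45.0% called). Klb, the co-receptor for the gut hormone that restrains synthesis, rose by 1 ± 0.1 in the knock-in and 1.28 ± 0.10 in wild type, and Nr1i3, encoding the receptor CAR, rose by 1.58 ± 0.10 in the knock-in and 1.72 ± 0.11 in wild type, though 74.85% of its exon length is shared with another gene. Foxa2, a liver transcription factor, fell, with −0.54 ± 0.05 in the knock-in and −0.71 ± 0.05 in wild type. These changes were called by edgeR with adjusted p-values of 9.13e-10 or below. Between genotypes, 6 regulators were higher and 3 lower in the knock-in without treatment (37.0% of all genes tested called), and 6 were higher and 5 lower with it (42.5% called).

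Ppara, the gene of the agonist's receptor, rose with CP775146 in both genotypes and was lower in the knock-in. It had 93.8 ± 3.57 CPM in treated knock-in, 73.3 ± 2.32 in untreated knock-in, 127 ± 8.33 in treated wild type and 87.6 ± 1.17 in untreated wild type (SD, n = 3 each). The treatment changed it by 0.36 ± 0.05 log2 in the knock-in and 0.54 ± 0.04 in wild type, and the genotype difference was −0.44 ± 0.04 with CP775146 (edgeR adjusted p = 2.11e-09) and −0.26 ± 0.05 without (edgeR adjusted p = 3.84e-05). Nr1h4, encoding FXR, had 88.8 ± 2.29 CPM in treated knock-in, 93.4 ± 2.54 in untreated knock-in, 85.5 ± 3.85 in treated wild type and 80.3 ± 6.42 in untreated wild type, and of the 5 comparisons only the genotype difference without treatment passed, at 0.22 ± 0.05 (edgeR adjusted p = 0.000557). Nr0b2, the repressor that FXR induces, was at 0.263 ± 0.0706 CPM in treated knock-in, 0.240 ± 0.0758 in untreated knock-in, 0.163 ± 0.0885 in treated wild type and 0.208 ± 0.0585 in untreated wild type, and was too low to be tested.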

How the data were processed

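RNA-seq libraries were measured as raw counts per gene, made by the authors. Per the file headers, featureCounts 1.6.2 summed exons per gene on Subread output (mm10, annotation of Ensembl release 83), and neither a strand nor a multi-mapping option was set. The submitters' processing notes name featureCounts 1.4.6-p4, FastQC 0.11.2, cutadapt 1.9 and edgeR 3.18.1. The deposited counts are not normalized. Without strand, reads of overlapping genes cannot be told apart. Of 46983 IDs, 46488 matched a symbol.

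The low-count filter was filterByExpr (count 10, total 15) and the scaling TMM. The model was the robust quasi-likelihood fit of edgeR 4.0.16 (R 4.3.3) with 1 term per group and 12 libraries. The groups shared 1 estimate of spread per gene. Estimated per group, the coefficient of variation between libraries was 2.61% in treated knock-in and 2.57% in untreated knock-in. It was 5.32% in treated wild type and 5.09% in untreated wild type, so the shared estimate may understate wild-type spread. Adjusted p-values are Benjamini-Hochberg over all 15664 tested genes at a threshold of 0.05. The steps were tested on simulated data. Alternatives tried were other scalings (RLE, total counts), DESeq2 1.42.0, other filters, compared groups alone, a replicate block and leaving out each library. All groups carry the same replicate numbers. Between the agonist-treated genotypes, same-numbered libraries deviated weakly alike (r = 0.138, 0.123 and 0.133 over 10097 genes). For the other pairs of groups r ran from −0.166 to 0.2. The main fit paired no libraries, and the block by replicate number was an alternative only. Any such pairing comes from the data, not the labels. Named genes were the 10 and the receptors Ppara, Nr1h4 and Nr0b2 with Mtdh. From each list and comparison, at most the 4 called genes of smallest adjusted p were named. Outside that rule, the flagged results name every pathway list gene called in the interaction. Hsd3b7, the neighbours of Baat and Abcb4, some cell type markers and the gene most alike with each of the 10 were named too. The 10 genes and the lists were chosen with earlier results of these data known. Promoter windows come from RefSeq (GRCm38.p6).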

Additional observations from a re-analysis of the deposited data

Results flagged for a closer look

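The response to CP775146 differed between the genotypes for these genes by the edgeR interaction test at an adjusted p below 0.05. Of all genes tested, 7.11% were called. Of the genes listed here, the alternative fits were examined for Abcc2 alone, and no explanation was weighed. The values are log2 responses in the knock-in minus those in wild type. Abcc2, the canalicular exporter, had 0.27. Abcg5 (0.50), a sterol exporter, and Slco1a4 (0.40) fell less in the knock-in. Abcc4 (0.35) had 0.15 in the knock-in and −0.20 in wild type, and Atp8b1 (0.25), a canalicular phospholipid flippase, had −0.05 in the knock-in (not called) and −0.30 in wild type. Slco2b1 (−0.38) and Abcg2 (−0.28) rose less in the knock-in. In synthesis, Hsd17b4 (−0.37), Abcd3 (−0.33) and Slc27a2 (−0.22) rose less in the knock-in. Fdx1 (−0.27), which passes electrons to mitochondrial P450 enzymes, had −0.10 in the knock-in and 0.16 in wild type. The scaffold gene Slc9a3r1 (0.25) fell less in the knock-in. The receptor genes Nr5a2 (0.41) and Rxra (0.24) did not pass in the knock-in, at −0.05 for Nr5a2 and 0.05 for Rxra, and fell in wild type, at −0.47 for Nr5a2 and −0.18 for Rxra.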

How the results depend on the processing

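The number of bile acid genes called stayed within 1.5 times its main value in 4 of the 5 comparisons under every alternative run, and no gene reversed its direction past the threshold. Leaving out 1 library gave 6 genes called in every case with CP775146 in the knock-in, 6 to 8 in wild type, 6 to 8 between genotypes without treatment, 5 to 7 with CP775146, and 1 to 4 for the interaction, against 6, 8, 8, 6 and 1. The main counts for CP775146 in the knock-in and in wild type include Cyp7a1, which met the filter through untreated libraries alone. The interaction gave 2 without a low-count filter, where Abcb4 passed at −0.20 (adjusted p = 0.0197), 4 without untreated wild-type replicate 2 and 2 without untreated wild-type replicate 3. The cause was not tested. With the replicate number as a block, the counts were 6, 8, 8, 6 and 1, and the block changed no call. Fitting the treated groups alone with the block, an alternative chosen after seeing the data, also gave 6. Over single genes, leaving out a library made 9 values pass and 19 no longer pass, and 572 kept their side. The other settings made 9 pass and 6 no longer pass, and 322 kept it. Fits of the compared groups alone lost Cyp27a1 (adjusted p = 0.088) and Abcc2 (0.118) with CP775146 in wild type and Abcb4 between untreated genotypes (0.0768), and DESeq2 lost Abcc2 in wild type (0.0581). No low-count filter lost Cyp27a1 in wild type (0.0693). Abcc2 between untreated genotypes passed in the compared groups alone (0.0144), without a low-count filter (0.00748), with RLE scaling (0.0443), total-count scaling (0.000412) and the stricter filter (0.0399). Cyp7b1 with CP775146 in wild type passed with RLE scaling (0.0464), total-count scaling (0.00852) and the stricter filter (0.0411). A filter of 5 CPM in 3 libraries removed Cyp7a1 and Cyp8b1. Depth limits Cyp7a1 most, with 3 reads in treated wild type.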

Other observations

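Baat and Abcb4 lie beside related genes, which were described by position. On chromosome 4 (GRCm38), the acyltransferase genes Acnat1 (49447105 to 49473912) and Acnat2 (49379840 to 49408151) precede Baat, all on the minus strand. Acnat2 had 108 ± 5.18 CPM in treated knock-in, 124 ± 3.48 in untreated knock-in, 76.2 ± 1.97 in treated wild type and 86.8 ± 6.06 in untreated wild type (SD, n = 3 each), and knock-in was higher by 0.50 log2 with CP775146 and 0.51 without. Acnat1 was higher in the knock-in by 0.19 with CP775146 and 0.27 without.

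On chromosome 5, the drug exporter genes Abcb1a (8660077 to 8748575) and Abcb1b (8798147 to 8866315) precede Abcb4 on the plus strand. Abcb1b was added after the values of its neighbours were seen. It had 11.4 ± 0.981 CPM in treated knock-in, 13.3 ± 0.933 in untreated knock-in, 2.79 ± 0.476 in treated wild type and 3.178 ± 0.127 in untreated wild type (SD, n = 3 each), so knock-in was higher by 2.03 log2 with CP775146 and 2.06 without. Abcb1a was higher in the knock-in by 0.88 with CP775146 and 1.01 without. With CP775146, Abcb1a rose by 0.47 in the knock-in and 0.61 in wild type, while Abcb1b had −0.21 in the knock-in and −0.19 in wild type, of which only the knock-in value passed edgeR's threshold. Abcb4, next to both, rose 2.27-fold in the knock-in and 2.58-fold in wild type and differed between genotypes by −0.07 log2 with CP775146 and 0.12 without.

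The gene whose log2 CPM varied most alike with each bile acid gene over the 12 libraries was listed as a description, since the 4 groups set most of that variation. Abcb4 was closest to Hsd17b4 (Pearson r = 0.998), Abcb11 to Akr1c14 (0.995), Cyp27a1 to Cyp2e1 (0.993), Baat to Nipsnap1 (0.991), Slc10a1 to Cep85l (0.981), Cyp7a1 to Rnf43 (0.976), Cyp7b1 to Zfp281 (0.975), Abcc2 to Arntl2 (0.973), Slco1b2 to Cyp3a11 (0.970) and Cyp8b1 to Plxna2 (0.938).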
